A study of Mus musculus with 30 samples.

Results

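The genes described here encode the proteins of the mitochondrial ribosome. They were taken as every protein-coding gene whose symbol begins with Mrpl (large subunit) or Mrps (small subunit) in each of the 2 deposited count tables. The rule found 78 genes, 49 of the large and 29 of the small subunit, and all 78 have a row in both tables, of 78258 rows in the table of the postpartum study and 56691 in the table of the diet study. The rule uses symbols and no measured value, but it was set with earlier results of these data known.

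The mitochondrial ribosome translates the messenger RNAs that mitochondrial DNA encodes, all of them for subunits of the respiratory chain and the ATP synthase. Its 2 ribosomal RNAs are transcribed inside the organelle, while every one of its proteins is encoded in the nucleus, made in the cytosol and imported, so the particle is assembled from products of both genomes. Some of its proteins have a counterpart in the bacterial ribosome and others are specific to mitochondria. The heart, which depends on oxidative phosphorylation, holds many mitochondria, and inherited defects of several of these proteins are known to cause cardiomyopathy.

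The hearts came from wild-type (WT) mice and from mice with the p.S55L mutation of CHCHD10, a protein of the mitochondrial intermembrane space. The labels give no strain, sex or zygosity. In the postpartum study, naive WT and naive S55L mice were aged to 100 days, and postpartum (PP) WT and PP S55L mice were mated at 65 days and their hearts taken at postpartum day 0. PP mice thus differ from naive mice in breeding and pregnancy together, and the labels give the age of the naive mice alone. In the diet study every mouse was S55L and PP, and the breeding mice ate food with EH301 (nicotinamide riboside and pterostilbene) or control food, with no WT group. RNA of the whole heart was made into 3′ mRNA libraries, in which a read marks the end of a transcript, so the counts follow transcript number and are not scaled by length. In such bulk RNA, fewer cells of a type and less RNA per cell cannot be told apart.

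Each group was deposited as 5 columns, but some columns were copies. WT PP columns 1 and 2 were identical, as were S55L PP columns 1 and 2, and each pair was counted as 1 sample (n = 4 in each PP group, n = 5 in each naive group). Control diet 5 held the same counts as EH301 diet 6, so neither was used (n = 4 on each diet). Reads on genes ran from 1418715 to 5131316 per library in the postpartum study and from 466651 to 3048461 in the diet study, where control diet 1 had 466651 and EH301 diet 8 had 1141997. The labels do not say that libraries came from separate mice, so each p-value reflects spread among these libraries alone, which may be technical. Genotype was nearly the same split as the plate column in the well code of the column names: all WT libraries but WT PP 1 came from column 1, while WT PP 1 and the S55L libraries came from columns 2 and 3. Genotype and plate column can hardly be told apart here, and the counts with plate column as a term stand beside the results. In that fit the step from column 1 to column 2 rests on WT PP 1 beside the other WT PP libraries. The step from column 2 to column 3 rests on S55L PP 5 beside the other S55L PP libraries. A call kept or lost with this term thus depends on single libraries and does not separate genotype from plate column.

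Several libraries stood apart in the mitoribosomal genes. WT naive 1 was the highest or the lowest of its group for 49 of the 78 genes and S55L naive 3 for 41, where the mean over a group of 5 libraries is 31.2. S55L PP 5 was so for 51, WT PP 1 for 48, S55L PP 1 for 46 and WT PP 5 for 45, where the mean over a group of 4 is 39. WT naive 1, WT PP 1 and S55L PP 1 are the libraries of plate row A, taking the first of each identical pair. In the diet study control diet 1 was the highest or lowest of its group for 60 of the 71 genes tested and EH301 diet 8 for 56, where the mean is 35.5, and these were the shallowest libraries of that study.

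In naive hearts the mutation went with lower transcripts for many mitoribosomal proteins of both subunits, and with higher ones for a few. Of the 78 genes, all of which passed the filter on low counts, 32 fell and 6 rose in S55L naive against WT naive (adjusted p under 0.05 over 11945 genes, edgeR quasi-likelihood F-test with Benjamini-Hochberg adjustment). Across all genes tested 21.6% were called lower and 21.9% higher. The 32 that fell were 41.0% of the mitoribosomal genes, and the 6 that rose were 7.69%. Their median log2 fold change was -0.24, beside -0.00 over all genes tested. In 27 of the 78 every S55L library lay below every WT library, and in 5 every S55L library lay above, where 15.4% and 16.8% of all genes tested did so. Scaling to total counts moved the median of all genes to 0.24 and that of the 78 genes to 0.01, so that relative to all genes the difference was -0.24 with that scaling and -0.23 with the main one; it called 16 lower and 19 higher. With plate column as a term, 12 were called lower and 10 higher. The share of all genes called in these alternative fits is not given here, so a loss particular to the mitoribosomal genes is not shown.

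**Figure D1:**
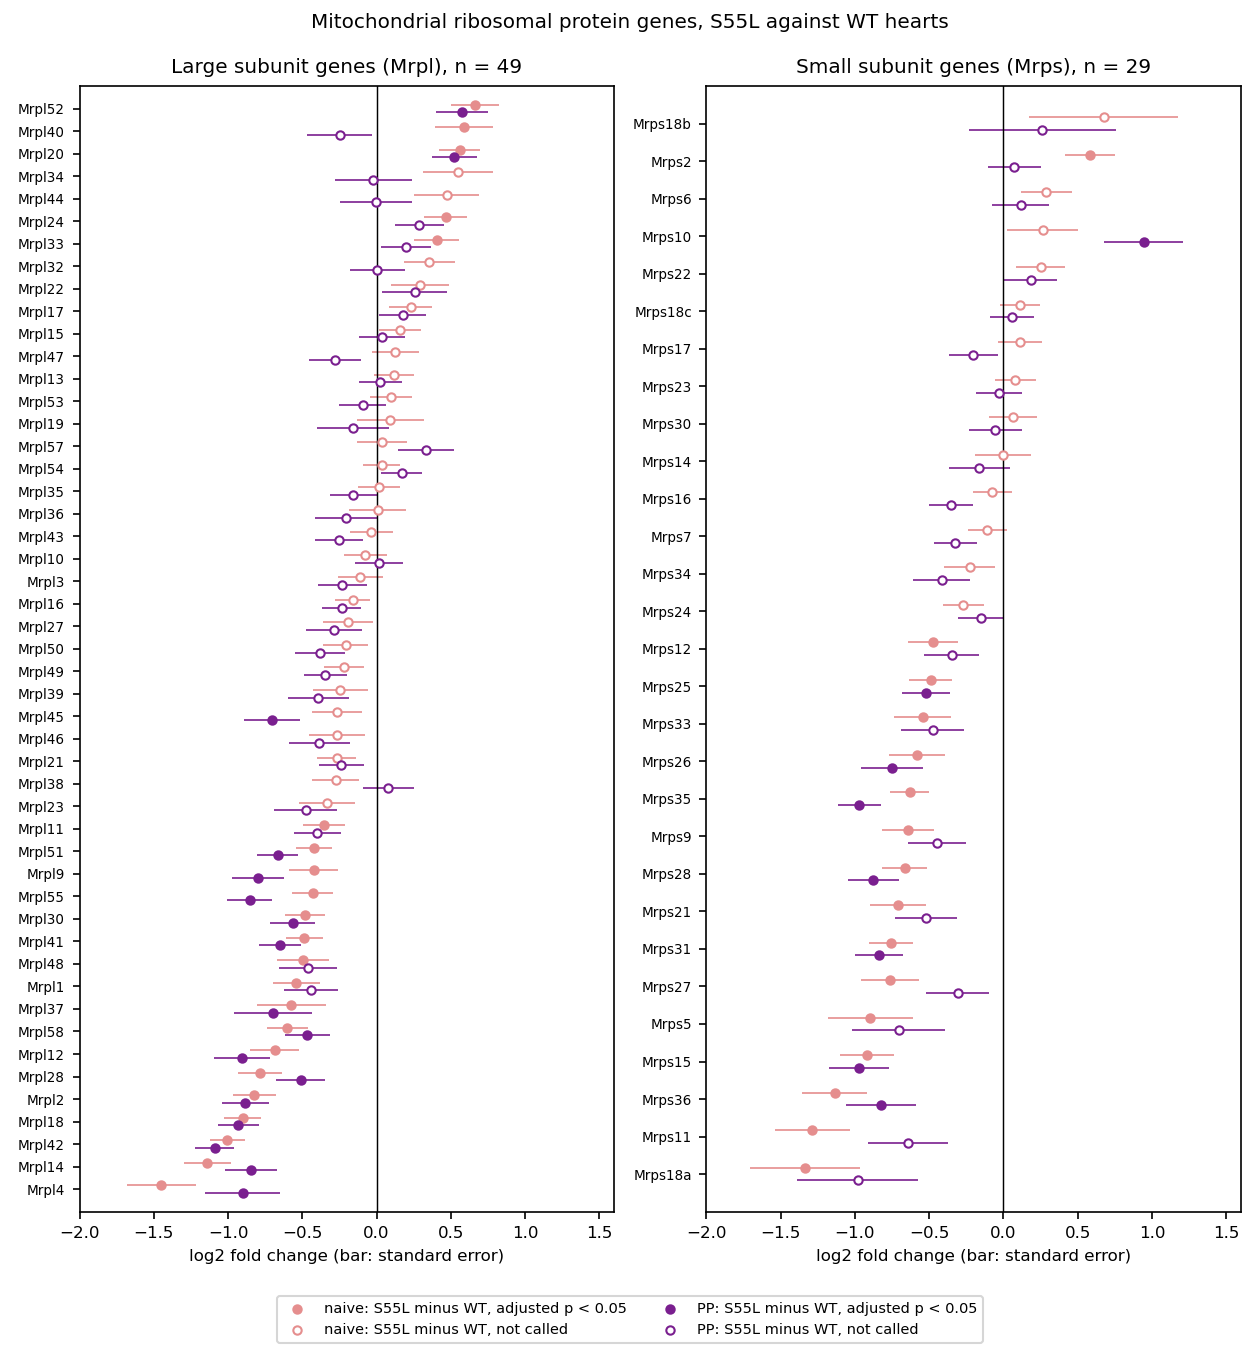
Each mitoribosomal gene's log2 fold change (x axis; bar, standard error) between S55L and WT hearts, in naive (pink) and postpartum (purple) mice, with genes ordered by the naive value and filled points where the edgeR adjusted p was under 0.05. Most filled points lie left of 0 in both panels, and the few on the right are led by Mrpl52 in naive and Mrps10 in postpartum mice.

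Among large-subunit genes, 17 of 49 fell and 5 rose in naive S55L hearts. The largest fall was that of Mrpl4 (ENSMUSG00000003299), which encodes a counterpart of the bacterial protein uL4 near the start of the peptide exit tunnel. Its level was 84.5, 57.2, 60.8, 71.7 and 61.4 CPM (reads of the gene scaled to library size) in WT naive libraries 1 to 5 and 24.6, 22.5, 23.9, 28.7 and 23.6 CPM in the S55L naive libraries. The groups were far apart: 67.1 ± 11.1 CPM in WT and 24.6 ± 2.39 CPM in S55L (SD, n = 5 per group), a log2 fold change of -1.45 (SE 0.23, edgeR adjusted p = 2.4e-05). Mrpl14 (ENSMUSG00000023939), whose product lies at the interface with the small subunit, gave 266, 208, 227, 219 and 186 CPM in WT naive and 88.6, 101, 93.7, 120.0 and 98.3 CPM in S55L naive libraries. It fell by 1.14 on the log2 scale (SE 0.16, edgeR adjusted p = 1.8e-06), again with no overlap.

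The lowest adjusted p of a fall in the large subunit was that of Mrpl42 (ENSMUSG00000062981), a protein specific to mitochondria. It was at 359, 315.97, 304, 314 and 308 CPM in WT naive and 183, 151, 145, 171 and 147 CPM in S55L naive libraries, a log2 fold change of -1.01 (SE 0.12, edgeR adjusted p = 1.3e-07). Mrpl18 (ENSMUSG00000057388) encodes a counterpart of the bacterial protein that binds the small ribosomal RNA of the large subunit. It was at 198, 187, 168, 166 and 169 CPM in WT naive and 84.0, 89.5, 102, 103 and 97.3 CPM in S55L naive libraries (log2 fold change -0.90, SE 0.12, edgeR adjusted p = 1.6e-06). For both genes the lowest WT library stood well above the highest S55L library.

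Further named genes of the large subunit fell by less. Mrpl12, whose product stands in the stalk that recruits translation factors and is also known to bind the mitochondrial RNA polymerase, fell from 144 ± 18.02 to 89.4 ± 17.7 CPM (log2 fold change -0.69, edgeR adjusted p = 0.0015). Mrpl58, a peptidyl-tRNA hydrolase that rescues stalled ribosomes and is built into the large subunit, fell from 80.0 ± 7.14 to 52.7 ± 3.76 CPM (-0.60, edgeR adjusted p = 0.00083). Mrpl41, also specific to mitochondria, fell from 81.6 ± 6.83 to 58.2 ± 5.28 CPM (-0.49, edgeR adjusted p = 0.0025). With plate column as a term none of these 3 passed the test, with log2 fold changes of -0.13, -0.26 and -0.19 and adjusted p = 0.81, 0.51 and 0.61; over the alternatives run, adjusted p ranged from 6.56e-05 to 0.808, from 2.42e-05 to 0.508 and from 0.000105 to 0.611.

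The 5 large-subunit genes that rose in naive S55L hearts were Mrpl52, Mrpl40, Mrpl20, Mrpl24 and Mrpl33. Mrpl52 (ENSMUSG00000010406), specific to mitochondria, was at 56.1, 55.5, 63.8, 60.8 and 64.8 CPM in WT naive and 91.7, 99.2, 96.5, 102 and 88.1 CPM in S55L naive libraries (log2 fold change 0.66, SE 0.16, edgeR adjusted p = 0.0015). Mrpl20 (ENSMUSG00000029066), a counterpart of bacterial bL20, was at 60.8, 48.2, 53.2, 66.0 and 61.4 CPM in WT naive and 84.9, 90.9, 85.0, 85.3 and 82.2 CPM in S55L naive libraries (0.56, SE 0.14, edgeR adjusted p = 0.0016). Neither gene's libraries overlapped between the genotypes. Log2 fold changes were 0.59 for Mrpl40, 0.47 for Mrpl24 and 0.40 for Mrpl33, and these calls were less firm. Mrpl40 lost its call without WT naive 1 (adjusted p = 0.052) or S55L naive 3 (0.057), within a range of 0.000421 to 0.0573. Mrpl33 lost its call without WT naive 1, 2 or 4 or S55L naive 2 or 3, with a range of 0.00118 to 0.0903. Mrpl24 shares 500 bases at its 3′ end with Rrnad1 on the opposite strand, and Mrpl33 shares 177 bases with Gm43809 on its own strand, so their counts are uncertain where strand and counting mode are not given.

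Mrpl44 holds a fold of the RNase III family, and mutations of its human counterpart are known to cause a cardiomyopathy. It was at 24.2, 60.4, 59.1, 57.9 and 61.4 CPM in WT naive and 69.4, 74.3, 63.8, 78.5 and 77.2 CPM in S55L naive libraries. The genotypes did not overlap, but WT naive 1 stood far below the rest. The log2 fold change of 0.47 (SE 0.22) did not pass the test (edgeR adjusted p = 0.085), and over the alternatives adjusted p ranged from 0.0028 to 0.251.

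Of the 29 small-subunit genes, 15 fell and 1 rose in naive S55L hearts, and their median log2 fold change of -0.47 was lower than the -0.21 of the large subunit. Subunits follow the symbols here, so the 15 include Mrps18a and Mrps36, whose products lie outside the small subunit, as described below. The difference between the medians was not tested. Mrps18a (ENSMUSG00000023967) had the largest fall. It was at 40.2, 13.9, 31.6, 19.5 and 30.7 CPM in WT naive and 8.13, 12.2, 15.4, 9.95 and 8.94 CPM in S55L naive libraries, with 1 WT library inside the S55L range (log2 fold change -1.34, SE 0.37, edgeR adjusted p = 0.0067). With plate column as a term it just missed the threshold (adjusted p = 0.054, within 9.47e-05 to 0.0544). Its product is an S18-type protein that structures of the mammalian particle place in the large subunit despite its name, as they do for Mrps30. Mrps18b and Mrps18c, its paralogs, did not pass the test: Mrps18c was at 65.0 ± 9.38 CPM in WT and 70.1 ± 4.60 in S55L naive hearts (0.11, edgeR adjusted p = 0.52), and Mrps18b, with 183 reads in all 18 libraries, was at 2.09 ± 1.44 and 3.55 ± 1.30 CPM (0.68, SE 0.50, adjusted p = 0.29). The difference between the paralogs was not tested.

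Mrps11 (ENSMUSG00000030611), on the platform of the small subunit, was at 46.4, 28.6, 31.0, 39.6 and 31.2 CPM in WT naive and 15.6, 15.01, 15.8, 14.2 and 11.99 CPM in S55L naive libraries. Groups did not overlap, and the log2 fold change was -1.29 (SE 0.25, edgeR adjusted p = 0.00023). Mrps15 (ENSMUSG00000028861), a counterpart of bacterial uS15, was at 66.4, 68.6, 60.3, 47.0 and 67.3 CPM in WT naive and 39.6, 28.1, 41.3, 32.1 and 22.7 CPM in S55L naive libraries (-0.92, SE 0.18, edgeR adjusted p = 0.00019). The lowest WT library, at 47.0 CPM, lay above the highest S55L library, at 41.3. Mrps36 (ENSMUSG00000061474) fell from 27.8 ± 4.01 to 12.6 ± 1.76 CPM (-1.14, SE 0.22, edgeR adjusted p = 0.00017); its product is now known as a part of the oxoglutarate dehydrogenase complex, and not of the ribosome. With plate column as a term its log2 fold change was -0.05 (adjusted p = 0.94), the weakest of a range that began at 7.26e-06.

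Mrps12, the protein of the decoding center, fell from 58.1 ± 10.2 to 41.8 ± 5.56 CPM (-0.47, edgeR adjusted p = 0.022), a call that was lost without WT naive 5 or S55L naive 2 (range over the alternatives 0.00416 to 0.317). Mrps30 was at 44.3 ± 8.002 and 46.6 ± 7.22 CPM and Mrps34 at 50.3 ± 5.41 and 43.1 ± 10.5 CPM in WT and S55L naive hearts, and neither passed the test (edgeR adjusted p = 0.76 and 0.30). The single small-subunit gene that rose was Mrps2, a counterpart of bacterial uS2, from 24.2, 26.1, 16.96, 22.4 and 18.3 CPM in WT naive to 31.7, 30.4, 29.2, 36.4 and 33.6 CPM in S55L naive libraries (0.59, SE 0.17, edgeR adjusted p = 0.0062).

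**Figure D2:**
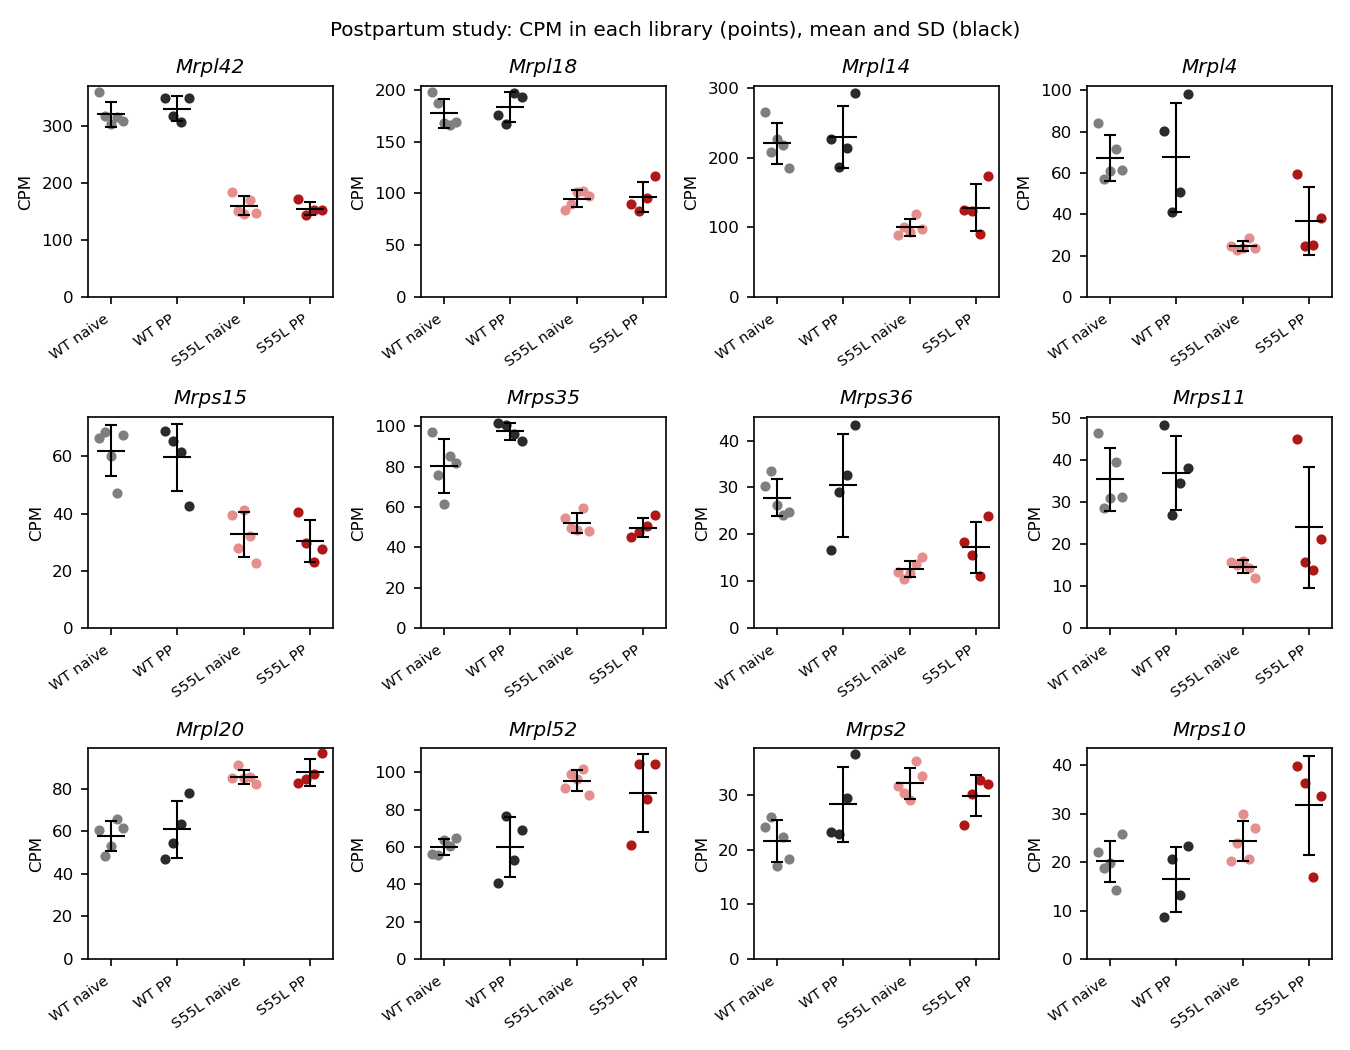
CPM of 12 mitoribosomal genes in each library of the postpartum study (points), with mean and SD in black; each y axis starts at 0. Mrpl42 and Mrpl18 separate both S55L groups from both WT groups with little spread, while Mrpl4, Mrps11 and Mrps10 have 1 S55L PP library well away from the others.

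After pregnancy the same comparison again gave mostly falls. In S55L PP against WT PP, 22 of the 78 genes fell and 3 rose (edgeR adjusted p under 0.05), against 15.2% and 16.3% of all genes tested. With the replicate number as a block, 29 fell and 3 rose, though the labels do not say that a number pairs libraries. The 22 were 28.2% of the mitoribosomal genes and the 3 were 3.85%. Their median log2 fold change was -0.33, with -0.28 for the large and -0.36 for the small subunit. By subunit, 15 of 49 large-subunit genes fell and 2 rose, and 7 of 29 small-subunit genes fell and 1 rose. Every S55L PP library lay below every WT PP library for 17 genes and above for 1, where 11.7% and 13.7% of all genes tested did so. With the libraries of plate row A left out, an alternative chosen after seeing the data, 31 fell and 2 rose, and in naive hearts 31 fell and 8 rose. Scaling to total counts gave 13 lower and 9 higher, with a median of -0.05 where that of all genes was 0.27, and plate column as a term gave 7 lower and 5 higher. Here too the share of all genes called in the same fits is not given.

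Mrpl42 again led. It was at 347, 315.95, 306 and 349 CPM in the 4 WT PP libraries and at 171, 144, 152 and 152 CPM in the 4 S55L PP libraries (log2 fold change -1.09, SE 0.13, edgeR adjusted p = 3.5e-07). Mrps35 (ENSMUSG00000040112), a small-subunit protein specific to mitochondria, was at 102, 100.5, 96.0 and 92.5 CPM in WT PP and 45.3, 47.6, 50.6 and 55.8 CPM in S55L PP libraries (-0.97, SE 0.15, edgeR adjusted p = 8.6e-06). In naive hearts it had fallen from 80.4 ± 13.2 to 52.1 ± 5.02 CPM. The spread within each PP group was small beside the gap between them for both genes.

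Mrpl18 was at 176, 167, 197 and 194 CPM in WT PP and 89.7, 83.4, 95.6 and 117 CPM in S55L PP libraries (-0.93, SE 0.14, edgeR adjusted p = 7.5e-06). Mrps15 was at 68.9, 65.3, 61.6 and 42.7 CPM in WT PP and 40.5, 29.7, 23.2 and 27.7 CPM in S55L PP libraries (-0.97, SE 0.20, edgeR adjusted p = 0.00050). Their PP groups were apart, for Mrps15 by a narrow margin. Mrpl12 fell by 0.91, Mrpl2, a core protein of the peptidyl transferase region, by 0.88 and Mrps28 by 0.88 (edgeR adjusted p = 0.00044, 8.8e-05 and 0.00025), and all 3 were without overlap. Mrpl41 fell by 0.65 (adjusted p = 0.00069). With plate column as a term Mrpl12, Mrpl18, Mrpl41 and Mrps28 lost these calls (adjusted p = 0.080, 0.10, 0.14 and 0.45), and Mrpl2 kept its call.

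Some falls rested on particular libraries. S55L PP 1 had 59.5 CPM of Mrpl4 where the other S55L PP libraries had 24.5, 25.04 and 38.3, and WT PP libraries 41.3 to 98.3 CPM; Mrpl4 fell by 0.90 (SE 0.25, edgeR adjusted p = 0.0082), a call lost with total counts, with plate column as a term and in a fit of only the PP groups (range 0.000144 to 0.173). Mrps11 was at 45.0 CPM in S55L PP 1 and at 15.7, 13.7 and 21.2 CPM in the others, inside and below the WT PP range of 26.8 to 48.2, and did not pass the test (-0.64, SE 0.27, adjusted p = 0.070). Mrps18a was at 28.2 CPM in S55L PP 1 and at 7.64, 5.92 and 11.5 CPM in the others, below 17.9 to 36.6 CPM in WT PP, and did not pass either (-0.98, SE 0.40, edgeR adjusted p = 0.072). Without S55L PP 1 Mrps18a passed, with -1.66 and adjusted p = 0.00031, the lowest of a range that reached 0.232, and with the replicate number as a block it passed too (-1.04, adjusted p = 0.026). Leaving out S55L PP 1 also brought Mrps12 (-0.51, adjusted p = 0.033, range 0.033 to 0.816) and Mrps34 (-0.55, adjusted p = 0.032, range 0.0315 to 0.618) past the threshold. In the opposite sense, Mrpl58 (-0.47, adjusted p = 0.020) lost its call without WT PP 5 or S55L PP 3, 4 or 5, with a range of 0.000401 to 0.389. Mrps36 (-0.82, adjusted p = 0.0088) lost its call without WT PP 5 (0.073, within 0.000773 to 0.369), and its sign with plate column as a term (0.52).

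The 3 genes that rose in PP hearts were Mrps10, Mrpl52 and Mrpl20. Mrps10 (ENSMUSG00000034729), of the head of the small subunit, was at 8.71, 20.7, 13.3 and 23.3 CPM in WT PP and 39.97, 36.4, 16.96 and 33.7 CPM in S55L PP libraries (0.94, SE 0.26, edgeR adjusted p = 0.0073). Its groups overlapped, and without the libraries of plate row A, which hold its lowest WT PP and highest S55L PP values, the log2 fold change was 0.56 (adjusted p = 0.11, the highest of a range from 7.04e-05). Mrpl20 was at 47.2, 54.7, 63.4 and 78.2 CPM in WT PP and 82.4, 84.7, 87.0 and 96.6 CPM in S55L PP libraries, with no overlap (0.52, SE 0.15, edgeR adjusted p = 0.0086). Mrpl52 was at 40.6, 76.5, 53.1 and 69.2 CPM in WT PP and 60.9, 105, 85.6 and 104 CPM in S55L PP libraries (0.57, SE 0.18, adjusted p = 0.014), and it lost its call without WT PP 1 (0.071) or S55L PP 3 (0.061), within 0.000285 to 0.0783. In a fit of only the 2 PP groups, 1 gene was called higher. Panel genes that did not pass in PP hearts were Mrpl44 (-0.01), Mrps18b (0.26), Mrps18c (0.06), Mrps30 (-0.06), Mrps12 (-0.35) and Mrps34 (-0.41).

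Many genes were called in both genotype comparisons, which share no library. Lower in both were 21 of the 78, or 26.9%, where 12.9% of all genes tested were lower in both. Of the 78, 14 lay lower without overlap in both, all of them among these 21. Of all genes tested, 7.64% lay lower without overlap in both. The 21 were Mrpl2, Mrpl4, Mrpl9, Mrpl12, Mrpl14, Mrpl18, Mrpl28, Mrpl30, Mrpl37, Mrpl41, Mrpl42, Mrpl51, Mrpl55 and Mrpl58 of the large and Mrps15, Mrps25, Mrps26, Mrps28, Mrps31, Mrps35 and Mrps36 of the small subunit. Mrpl20 and Mrpl52 were higher in both, where 14% of all genes tested were; Mrpl20 had no overlap in either, as 9.64% of all genes tested did in that direction. No gene was called in opposite directions, and 38 were called in neither comparison. Across the 78 genes the log2 fold changes of naive and PP mice had Pearson's r of 0.85 and Spearman's rho of 0.89, beside r of 0.90 over all genes tested; genes are not independent replicates, and the comparisons share the plate layout. Called lower in every alternative, plate column included, were 9 genes in naive hearts (Mrpl2, Mrpl4, Mrpl14, Mrpl18, Mrpl42, Mrps11, Mrps15, Mrps31 and Mrps35) and 4 in PP hearts (Mrpl2, Mrpl42, Mrps15 and Mrps35). Called higher in every alternative were Mrpl20, Mrpl52 and Mrps2 in naive hearts and none in PP hearts. The plate column term among these alternatives rests on single libraries, as described above, and does not separate genotype from plate column.

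The subunits were also compared library by library, as the mean log2 CPM over each subunit's genes. For the large subunit it was 6.09 to 6.23 in WT naive and 5.98 to 6.11 in S55L naive libraries, which overlap only through WT naive 1 and S55L naive 4. For the small subunit it was 5.39 to 5.66 in WT naive and 5.11 to 5.28 in S55L naive libraries, with no overlap. In PP mice the large subunit ran from 6.09 to 6.43 in WT and from 5.93 to 6.09 in S55L libraries, and the small subunit from 5.52 to 5.74 and from 5.03 to 5.42. Summed, however, the 78 genes took overlapping parts of the reads in both genotypes: 0.538% ± 0.0264 of reads on genes in WT naive, 0.546% ± 0.0182 in S55L naive (n = 5 each), 0.599% ± 0.0607 in WT PP and 0.577% ± 0.0625 in S55L PP (SD, n = 4 each). These plain shares are not rescaled, and the most abundant genes weigh most in them. Reads of the mitochondrially encoded messenger RNAs, which take from the same total, made up 18.4% to 22.2% in WT naive and 12.96% to 14.4% in S55L naive libraries; their part in the difference between the measures was not tested.

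**Figure D3:**
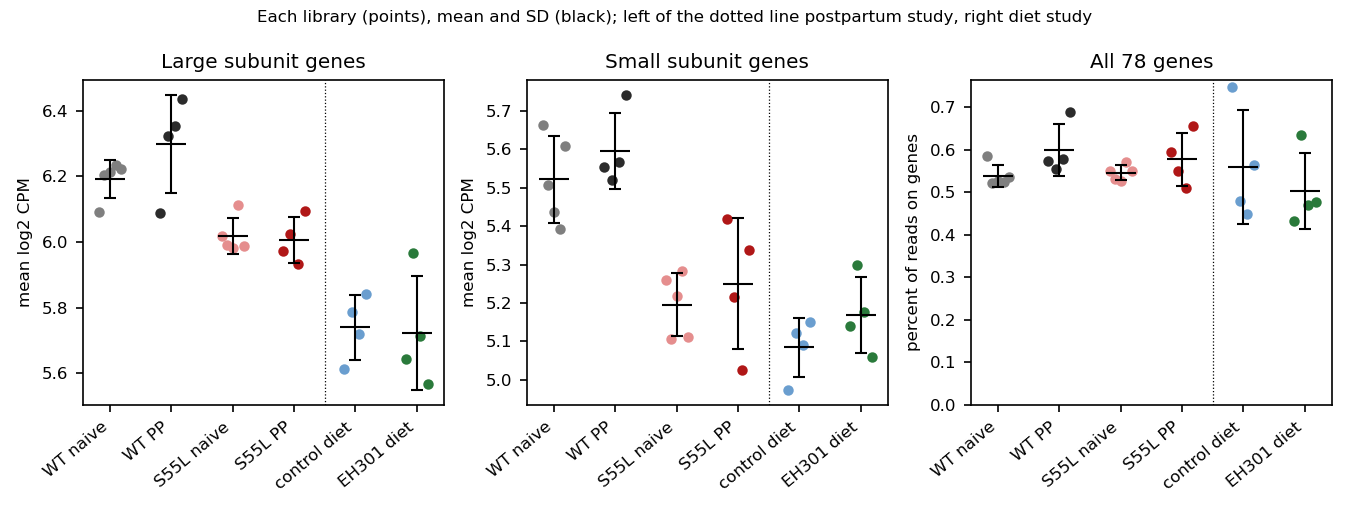
Mean log2 CPM of large-subunit (left) and small-subunit genes (middle) and the percent of reads on genes that fell on all 78 genes (right) in each library, with mean and SD. In the small subunit each S55L group sits below its own WT group, and S55L PP 1 alone reaches into the WT naive range, while the shares of reads overlap in all 4 groups; the diet study was counted on its own and its levels are not comparable with those on its left.

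Large minus small, the difference between those means, was 0.43, 0.70, 0.78, 0.84 and 0.61 in WT naive libraries 1 to 5 and 0.76, 0.89, 0.76, 0.83 and 0.88 in S55L naive libraries. The S55L mean was higher by 0.15 with a pooled SD over libraries of 0.12, and the ranges overlapped. Without the libraries of plate row A the difference was 0.09 (pooled SD 0.08). With Mrps18a and Mrps30 moved to the large subunit, as in structures, and Mrps36 left out, it was 0.09 (pooled SD 0.12). In PP mice large minus small was 0.53, 0.80, 0.78 and 0.69 in WT and 0.55, 0.81, 0.91 and 0.75 in S55L libraries, a difference of 0.05 with a pooled SD of 0.14. The lowest value of each group that has a library in plate row A was that of the row A library. In both genotype comparisons the libraries of the genotypes thus overlapped in this measure, and in PP mice the difference was under 1 pooled SD.

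Grouped by origin, 46 genes encode proteins with a bacterial counterpart and 31 encode proteins specific to mitochondria, with Mrps36 in neither class. Mrps18a and Mrps18b, though of the S18 family, were counted as specific, since Mrps18c is the paralog that takes the place of the bacterial protein. In naive hearts 18 of the 46 fell and 4 rose, with a median log2 fold change of -0.14, and 13 of the 31 fell and 2 rose, with a median of -0.26. In PP hearts 11 of the 46 fell and 2 rose (median -0.26), and 10 of the 31 fell and 1 rose (median -0.39). Across all genes tested 21.6% fell and 21.9% rose in naive, and 15.2% fell and 16.3% rose in PP hearts. Both classes held genes among the largest falls, Mrpl4 and Mrps11 in the first and Mrpl42 and Mrps18a in the second. The difference between the classes was not tested.

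Pregnancy within a genotype changed no mitoribosomal gene past the test. In WT PP against WT naive, 0 of the 78 were called by edgeR, DESeq2 or limma voom, where edgeR called 0% of all genes tested higher and 0.0167% lower; 6 of the 78 had an unadjusted edgeR p under 0.05, where 6.33% of all genes tested did (9 in DESeq2 and 10 in voom). The smallest of these was for Mrpl32 (0.54, SE 0.19, unadjusted p = 0.0076, adjusted p = 0.63). The median log2 fold change was 0.08 in each subunit, beside -0.00 over all genes tested, and 58 of the 78 values were above 0. Of the 78 intervals (95%), 77 lay within 1 on the log2 scale and 47 within 0.5, which limits what a change could have been in these libraries.

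In S55L PP against S55L naive, 0 of the 78 were again called by the 3 tools (0% of all genes tested by edgeR), with an unadjusted p under 0.05 for 7 in edgeR and DESeq2 and 2 in voom (6.25% of all genes tested in edgeR). Mrpl40 was the single gene whose groups did not overlap (1.11% of all genes tested lay so, lower). It was at 44.2, 39.5, 58.4, 46.3 and 41.0 CPM in S55L naive and 23.2, 33.5, 35.004 and 26.2 CPM in S55L PP libraries (-0.63, SE 0.20, unadjusted p = 0.0037, edgeR adjusted p = 0.60). The same gene had been higher in S55L naive than in WT naive hearts, so the S55L naive group is shared by the 2 values. Mrps11 was next, with 0.71 (SE 0.26, edgeR adjusted p = 0.67), and its PP mean includes the high S55L PP 1. Medians were -0.04 for the large and 0.06 for the small subunit, and 74 of 78 intervals lay within 1 and 48 within 0.5 on the log2 scale.

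The interaction asks whether the genotype difference itself differed between PP and naive mice. None of the 78 genes passed in edgeR, DESeq2 or voom (0% of all genes tested in edgeR), with an unadjusted p under 0.05 for 3 in each tool (3.72% of all genes tested in edgeR). The largest were Mrpl40 with -0.84 (SE 0.30, adjusted p = 1.0) and Mrps10 with 0.68 (SE 0.36). The intervals were wide, with 68 of 78 inside 1 and 12 inside 0.5 on the log2 scale. Large minus small differed by 0.03 between WT PP and WT naive (pooled SD 0.15) and by -0.07 between S55L PP and S55L naive (pooled SD 0.11).

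**Figure D4:**
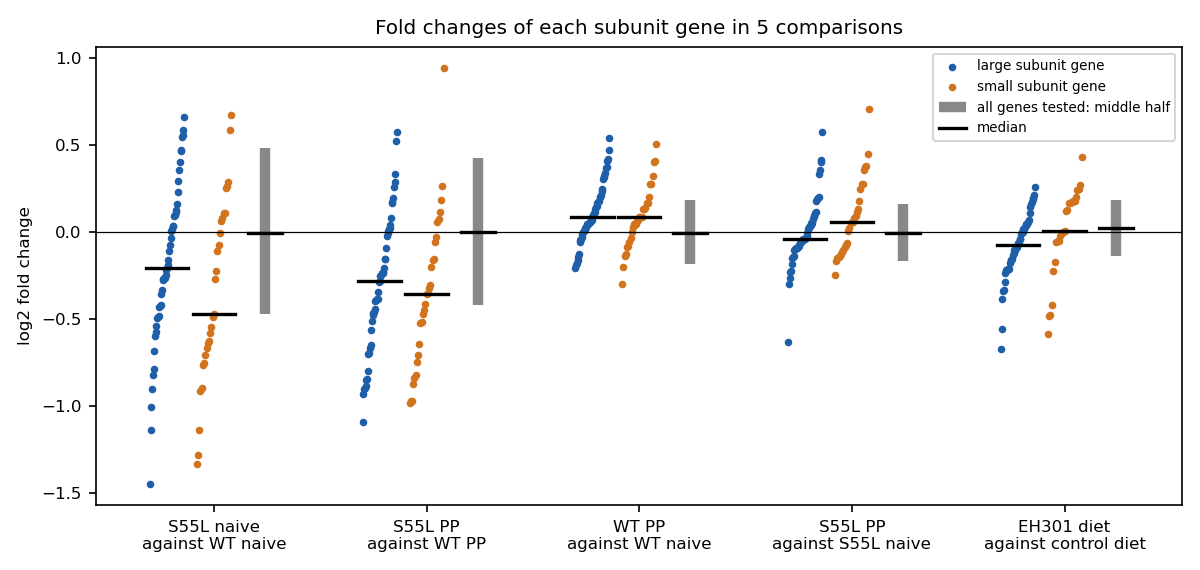
Log2 fold change of every large-subunit (blue) and small-subunit gene (orange) in 5 comparisons, each set sorted upward, with black bars at medians and grey bars over the middle 50% of all genes tested. The 2 genotype comparisons reach from -1.45 to 0.94 with medians of -0.21 to -0.47, while the 2 postpartum comparisons and the diet comparison lie around 0.

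On the EH301 diet no mitoribosomal gene differed from the control diet past the test. Of the 78 genes, 71 had enough reads to be tested there, 46 of the large and 25 of the small subunit. None was called by edgeR, DESeq2 or voom, and none had an unadjusted p under 0.05 in any of the 3; edgeR called 0% of the 10335 genes tested and gave 1.33% an unadjusted p under 0.05. The median log2 fold change was -0.07 for the large and 0.00 for the small subunit, beside 0.02 over all genes tested. Precision was lower than in the postpartum study: 58 of 71 intervals (95%) lay within 1 and 6 within 0.5 on the log2 scale. Changes of the size seen for Mrpl42 between genotypes lay outside most of these intervals, and how small a change could have been seen differed between genes. Diet and plate column were split as well, with control diet libraries in columns 1 and 2 and EH301 libraries in column 3, and cannot be told apart.

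Mrpl12 was at 516, 194, 162 and 240.4 CPM on the control diet and 226, 368, 193 and 245 CPM on the EH301 diet (-0.09, SE 0.38). Mrpl42 was at 37.8, 125, 108 and 97.9 CPM on the control diet and 98.9, 61.3, 108 and 108 CPM on the EH301 diet (-0.00, SE 0.31). Mrps18a was at 287, 51.7, 42.6 and 72.0 CPM on the control diet and 56.7, 134, 59.6 and 71.9 CPM on the EH301 diet (-0.42, SE 0.55). In each of the 3 genes the extreme values were those of control diet 1, the first on the control diet, and EH301 diet 8, the second on the EH301 diet, and the other 6 libraries lay closer together. Without control diet 1 the value of Mrps18a was 0.51 and without EH301 diet 8 it was -0.76.

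Of the 21 genes lower in both genotype comparisons, 20 could be tested between the diets, and 13 of these values were below and 7 above 0, with a median of -0.05, beside 41 below and 30 above over the 71 genes tested. Mrpl20 was at 35.8 ± 3.04 CPM on the control and 40.1 ± 3.88 on the EH301 diet (0.17, SE 0.20), Mrps35 at 24.6 ± 8.89 and 30.4 ± 4.16 CPM (0.24, SE 0.26) and Mrps34 at 48.9 ± 8.03 and 41.7 ± 3.01 CPM (-0.22, SE 0.21; SD, n = 4 each). Mrpl41 gave -0.33, Mrpl44 0.02, Mrpl58 -0.22, Mrps12 -0.48, Mrps18c 0.16 and Mrps30 0.25. Large minus small was 0.64, 0.66, 0.63 and 0.69 on the control diet and 0.50, 0.67, 0.54 and 0.51 on the EH301 diet. The EH301 mean was lower by 0.10 with a pooled SD of 0.06, and EH301 diet 8 lay among the control values while the other 3 lay below them.

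Low counts kept 7 genes out of the diet test, and for some of them the tables differ in more than depth. Mrpl33, Mrpl53 and Mrps6 had 0 counts in all 8 diet libraries but 6052, 5788 and 3858 counts in the postpartum study. Each shares bases at its 3′ end with another gene on the same strand in GENCODE M21, 177 with Gm43809, 500 with Gm42688 and 5 with Gm49711; which annotation the diet table was counted on is not given in the sources used here, and the part of these neighbours was not tested. Mrpl23 had 21 counts, Mrps18b 26, Mrps36 27 and Mrps21 54 in the diet study. Mrpl23-ps1, a processed pseudogene that carries its name, took 1699 counts in the postpartum study, where Mrpl23 took 1560, and 86 in the diet study. Their sequences were not compared, so whether reads of Mrpl23 were counted on the pseudogene is not known. Of the 78 genes, 65 shared no exonic bases within 500 bases of their 3′ end with another gene. Of these 65, 29 fell and 4 rose in naive and 19 fell and 3 rose in PP hearts. Among all genes tested the shares were 21.6% and 21.9% in naive and 15.2% and 16.3% in PP hearts.

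The ribosome's partners were read from lists of genes, and their shares called are set beside those of the subunits. Of 5 mitoribosomal proteins that carry other names, Gadd45gip1 alone fell, by 0.75 in naive and 0.92 in PP hearts (edgeR adjusted p = 0.012 and 0.0096), from 51.6 ± 9.26 to 30.7 ± 10.01 CPM in naive mice. It lost its call with total counts in both comparisons and with plate column as a term in naive hearts, where adjusted p reached 0.162 (0.0708 in PP hearts). Dap3, Ptcd3, Chchd1 and Aurkaip1 ranged from -0.21 to 0.04. Of 31 genes of mitoribosome assembly and ribosomal RNA processing, 7 fell (22.6%) and 4 rose in naive and 6 fell (19.4%) and 1 rose in PP hearts, near the 21.6% and 15.2% of all genes tested that fell. Rbfa, which matures the small subunit, fell from 66.4 ± 15.5 to 25.2 ± 3.58 CPM in naive (-1.40, edgeR adjusted p = 1.6e-06) and by 0.83 in PP hearts (adjusted p = 0.0033, within 0.000272 to 0.0735 and lost with total counts). Mtg2, a GTPase of large-subunit assembly, fell by 0.90 and Ngrn, which supports the large ribosomal RNA, rose by 0.64 in naive hearts (adjusted p = 0.0023 each). In PP hearts Mterf3 fell by 0.92 and Mrm1, a methyltransferase of the large ribosomal RNA, by 0.80 (adjusted p = 0.0080 and 0.012); Mrm1 lost its call without WT PP 5 (adjusted p = 0.10, within 0.00533 to 0.473), and Mterf3 lost its call with total counts and with plate column as a term (within 0.000669 to 0.185).

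Of 21 mitochondrial translation factors tested, 7 fell (33.3%) and 1 rose in naive and 3 fell (14.3%) and none rose in PP hearts, where 15.2% of all genes tested fell. Tufm, the elongation factor that brings transfer RNAs to the ribosome, fell from 111 ± 34.9 to 32.3 ± 3.28 CPM in naive (-1.78, SE 0.27, edgeR adjusted p = 3.5e-05) and from 104 ± 38.5 to 54.9 ± 29.8 CPM in PP hearts (-0.93, adjusted p = 0.022). The PP call was lost without WT PP 1 or S55L PP 3, 4 or 5, and adjusted p ranged from 1.19e-05 to 0.149. Mtif2, the initiation factor, fell by 1.21 and 1.01 (adjusted p = 1.7e-05 and 0.00098), and Oxa1l, which inserts the new proteins into the inner membrane, by 0.59 and 0.72 (adjusted p = 0.011 and 0.0089). Oxa1l lost both calls with total counts and with plate column as a term, and its adjusted p reached 0.878 in naive and 0.0817 in PP hearts. Of 9 genes of mitochondrial transcription and DNA maintenance tested, 5 fell (55.6%) and 1 rose in naive and 2 fell (22.2%) in PP hearts. Mterf2 fell by 1.16 and 1.73 (edgeR adjusted p = 9.6e-05 and 3.7e-06); Twnk, the helicase, and Tfb2m, the initiation factor of transcription, fell by 0.79 and 0.71 in naive hearts (adjusted p = 0.00068 and 0.0087), the latter without a call with total counts (0.090). Tfam, which packs mitochondrial DNA, fell by 0.59 in PP hearts (adjusted p = 0.024), without a call when WT PP 5 or S55L PP 1 was left out (range 0.0108 to 0.888).

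The messenger RNAs that the particle reads were lower too. Of 12 mitochondrially encoded messenger RNAs tested, 11 fell in each genotype comparison, with a median log2 fold change of -1.12 in naive and -1.16 in PP hearts. mt-Co3, a core subunit of cytochrome c oxidase, fell by 1.52 and 1.25, mt-Nd3, of complex I, by 1.40 and 1.52, and mt-Co2 by 1.10 in each (edgeR adjusted p from 9.8e-10 to 1.5e-06). The 2 mitochondrial ribosomal RNAs varied widely: mt-Rnr2 was at 14048 ± 7150.5 CPM in WT naive and 5878 ± 3471 in S55L naive, and neither it nor mt-Rnr1 passed in either comparison (adjusted p from 0.11 to 0.36). Of 82 genes of the cytosolic ribosome tested, 24 rose (29.3%) and 3 fell (3.66%) in naive and 10 rose (12.2%) and 3 fell (3.66%) in PP hearts, with medians of 0.13 and 0.07. The share that rose was above the 21.9% of all genes in naive and below the 16.3% of all genes in PP hearts, and the share that fell was below that of all genes in both. The difference between these lists was not tested, and counts of genes on a list are a description of these libraries.

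**Figure D5:**
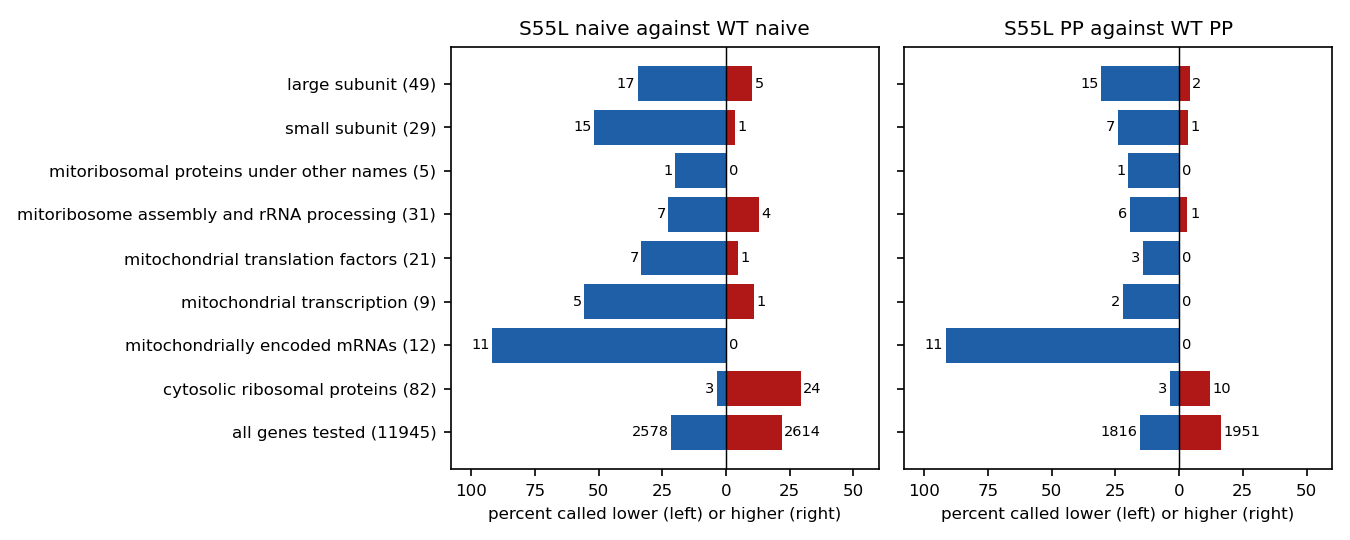
Percent of the tested genes of each list that edgeR called lower (left, blue) or higher (right, red) in S55L against WT hearts of naive and postpartum mice, with the number of genes at each bar and the number tested in parentheses. The subunit genes lean to the left, with 17 and 15 lower in naive mice, the mitochondrially encoded messenger RNAs do so most, with 11 of 12; few cytosolic ribosomal proteins are lower, and 12.2% of them are higher in postpartum mice where 16.3% of all genes tested, the last bars, are.

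Markers of the heart's cell types also differed with genotype, which bulk RNA does not resolve into cell number and RNA per cell. Of 4 atrial cardiomyocyte markers, 2 had counts in WT naive and 3 in each other group of the postpartum study. Myl7 was at 0 in both WT groups, and Sln in WT naive and both S55L groups. All 8 ventricular cardiomyocyte markers had counts in every group. Their summed level was 65627 to 88783 CPM in WT naive and 39942 to 53971 CPM in S55L naive libraries, and 66521 to 86930 against 33142 to 43983 CPM in PP mice, with 7 of 8 markers lower in each comparison. All 6 macrophage markers were higher in each, with sums of 128 to 177 CPM in WT naive and 594 to 878 CPM in S55L naive, and 172 to 293 against 611 to 880 CPM in PP libraries. Of 6 fibroblast markers, 3 were higher in naive and 4 in PP mice. Over all genes tested, 21.6% were called lower and 21.9% higher in naive, and 15.2% and 16.3% in PP mice. Summed pericyte and smooth muscle markers were 588 to 750 CPM in WT naive and 1514 to 3527 CPM in S55L naive libraries. In the same libraries atrial markers summed to 161 to 439 against 757 to 3543 CPM, and endothelial markers to 1231 to 1532 against 870 to 1170 CPM. Erythroid markers there summed to 2920 to 5784 against 1583 to 3116 CPM. In PP libraries pericyte and smooth muscle markers were at 447 to 828 CPM in WT and 1406 to 2134 CPM in S55L. There atrial markers were at 175 to 835 against 3012 to 5042 CPM. Endothelial sums overlapped in PP libraries (1159 to 1360 against 660 to 1346 CPM), as did erythroid sums (840 to 6306 against 3671 to 10911 CPM). Reads on genes were also more numerous in S55L naive (3369420 to 5131316) than in WT naive libraries (1418715 to 2307283). With all libraries thinned to 1418715 reads, 77 genes were tested. Of these, 28 were lower and 5 higher in naive and 23 lower and 3 higher in PP hearts. The share of reads assigned to genes was 58.3% to 61.5% in WT naive and 66.3% to 69.2% in S55L naive libraries. In PP libraries it was 59.0% to 61.6% in WT and 67.8% to 68.5% in S55L. Thinning does not change this share, and its part was not tested. The part of the cell types in the lower mitoribosomal transcripts was not tested.

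Promoter sequences were looked up for genes that are lower in both genotype comparisons and for others with the same motif, to show what these promoters share. They are RefSeq sequences on GRCm38.p6, a build other than that of the counts, and the table held 75 windows for 69 of the 78 genes. Each window ran from 250 bases before to 50 after an annotated start. Stretches of 100 bases before the start are given 5′ to 3′ on the gene's strand. Capitals mark the palindrome bound by nuclear respiratory factor 1 (NRF1) or CCGGAAGT, the core of the ETS family to which nuclear respiratory factor 2 belongs, on either strand. These genes were chosen after their values were seen.
Mrpl9: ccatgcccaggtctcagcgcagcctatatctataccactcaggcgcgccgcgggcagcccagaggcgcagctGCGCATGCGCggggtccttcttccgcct
Mrpl51: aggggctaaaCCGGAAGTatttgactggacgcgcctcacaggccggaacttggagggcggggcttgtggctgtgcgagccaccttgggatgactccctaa
Mrps26: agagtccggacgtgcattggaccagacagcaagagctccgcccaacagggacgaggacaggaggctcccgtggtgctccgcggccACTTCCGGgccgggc
Mrpl32: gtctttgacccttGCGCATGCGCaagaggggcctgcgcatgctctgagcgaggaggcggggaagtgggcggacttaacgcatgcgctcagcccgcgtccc
Mrpl27: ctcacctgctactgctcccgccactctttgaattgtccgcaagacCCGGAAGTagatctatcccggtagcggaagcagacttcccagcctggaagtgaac
Mrpl20: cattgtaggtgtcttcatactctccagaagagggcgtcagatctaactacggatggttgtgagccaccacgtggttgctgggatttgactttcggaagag

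Mrpl9, Mrpl51 and Mrps26 were lower in both comparisons, Mrpl32 and Mrpl27 were called in neither, and Mrpl20, shown for contrast with no capitals, was higher in both. The stretches lie at chr3:94443236-94443335 for Mrpl9, chr6:125192100-125192199 for Mrpl51, chr2:130563657-130563756 for Mrps26, chr11:94653691-94653790 for Mrpl27 and chr4:155802778-155802877 for Mrpl20, all on the plus strand, and at chr13:14613038-14613137 on the minus strand for Mrpl32. The motif began 28 bases before the start in Mrpl9, at -28, and at -90, -15, -87 and -55 in Mrpl51, Mrps26, Mrpl32 and Mrpl27. These genes were picked by motif and by call, so the same letters on both sides of the test follow from the choice.

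The NRF1 palindrome was present in 3 of the 75 windows of mitoribosomal genes, or 4%, and in 0.971% of all 32851 windows. CCGGAAGT was in 16% and 3.89%, a form of the YY1 site in 6.67% and 0.633%, and the GC box GGGCGG in 52% and 35.7%. TATAAA was in 6.67% and 13.6%, TGACGTCA in 2.67% and 1.79%, its shorter form TGACGT in 13.3% and 7.51%, and TGATGNAA in none and 3.97%. CCAAT, the box bound by NF-Y, was in 40% and 37.4%; it was in 13 of 20 windows of the genes lower in both comparisons, or 65%, and in 10 of 33 windows of those called in neither, or 30.3%. Some genes have several overlapping windows, and counted by gene it was in 11 of 18 and 9 of 32. For the NRF1 palindrome the same split was 1 of 20 and 2 of 33 windows, and for CCGGAAGT 3 of 20 and 5 of 33. It was 12 and 17 windows for the GC box, 0 and 4 for TATAAA and 3 and 6 for TGACGT. For the YY1 form it was 1 and 1, for TGACGTCA 0 and 2 and for TGATGNAA 0 and 0. CCAAT had the widest gap of the 9 motifs. The sets were made from the calls, and no difference between them was tested. Mitoribosomal windows had a median GC content of 58.7% and all windows 52.7%, and 9 motifs were searched on both strands, some of them overlapping. A match describes letters in a window and is not a measured site.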

How the data were processed

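Whole-heart RNA of mice was measured in 2 studies. Per the labels' protocols, extraction used the Qiagen RNeasy Mini kit and libraries the Lexogen QuantSeq 3′ FWD kit. The authors deposited unnormalized counts of reads for each gene; the submitters' processing notes name Trimmomatic 0.39, STAR 2.7.0f, HTSeq 0.6.1, DESeq2 with a version of 3.21 and the build GRCm39.p6. Annotation release, strand setting and counting mode are not given in the sources used here. The tables list different genes and were never fitted together. Symbols came from GENCODE M21 by Ensembl ID (51487 and 52073 IDs matched). HTSeq summary lines stayed out of sizes and tests.

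Every pair of columns was compared; 3 pairs were identical, and other pairs differed by a chi-square per gene of at least 2.16 and 4.94. Genes passing filterByExpr by group were scaled by TMM and entered a robust quasi-likelihood fit in edgeR 4.0.16 under R 4.3.3, Benjamini-Hochberg adjusted over all genes tested, called at 0.05, with all 4 postpartum-study groups in 1 fit. SE is the size of the log2 fold change over root F. CPM use TMM-scaled sizes, and log2 CPM a prior count of 2. The steps were tested on simulated data.

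Numbers in the titles were checked as pairs: libraries with a number in common in WT PP and S55L PP deviated together (r = 0.119 to 0.333 over 4 pairs). The other comparisons had pairs under 0.1. The highest of the PP values, for numbers 1 (0.326) and 5 (0.333), came from libraries in a shared plate row. WT PP 1 and WT naive 1, also in a shared row, gave 0.356. Unlike numbers were not compared, so the check does not separate number from plate row, and the block is given as a setting only. Alternatives were DESeq2 1.42.0, its size factors, total counts, limma 3.58.1 voom, no filter, no mitochondrially encoded genes, all columns, a replicate block, plate column, only the compared groups, thinned counts and each library left out, and, added after seeing the data, no plate row A libraries. Named were all called members where 12 or fewer were called, otherwise the 8 largest in each direction, a panel of 11 (Mrpl12, Mrpl41, Mrpl44, Mrpl58, Mrps12, Mrps18a, Mrps18b, Mrps18c, Mrps30, Mrps34, Mrps36), and up to 3 called genes per other list; other names, such as Mrpl32 and Mrpl40 outside naive mice, and those in lists of calls, were chosen after their values were seen. Members and lists were chosen with earlier results of these data known.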

Additional observations from a re-analysis of the deposited data

Results flagged for a closer look

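Large gaps between 1 library and the rest of its group were looked for in 174 groups of values (30 genes and summed levels), and 8 were found; chance gives about 1 in 20. WT naive 1 held 4 of them. It had 0.412% of its reads on large-subunit genes, where the other WT naive libraries had 0.383% to 0.3901%. Mrpl42 was at 359 CPM there against 304 to 315.97, Mrps28 at 89.6 CPM against 54.4 to 59.7, and Mrpl44 at 24.2 CPM against 57.9 to 61.4. Without WT naive 1 the count of members in naive hearts was 28 lower and 5 higher. Mrpl58, the ribosome rescue factor, was at 68.8 CPM in S55L PP 1 and at 45.8 to 49.2 CPM in the other S55L PP libraries.

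In the diet study the gaps belonged to the shallowest libraries. EH301 diet 8 had 81.7 CPM of Mrpl2, where the other EH301 libraries had 55.7 to 57.6, and 243 CPM of Mrpl58, where they had 96.5 to 117. Control diet 1 had 287 CPM of Mrps18a, and the other control diet libraries 42.6 to 72.0. With the libraries under 1200000 reads left out, 0 members were called between the diets, as before (edgeR; 0 at an unadjusted p under 0.05).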

How the results depend on the processing

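In naive hearts the count of genes called lower (32) was 16 with total counts, 20 with no filter and 12 with plate column as a term, and that of genes called higher (6) was 19 with total counts and 10 with plate column. In PP hearts the count lower (22) was 13 with total counts, 34 with voom and 7 with plate column, and the count higher (3) was 9 with total counts, 5 with plate column and 1 with only the compared groups. Total counts raised the median of all genes by 0.24 and 0.27. The cause of the other shifts was not tested. Without the share of all genes called in each fit, these counts do not show a shift particular to the mitoribosomal genes. Mrps36 in PP hearts had 0.52 with plate column (adjusted p = 0.37) in place of -0.82.

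Leaving out each library gave 27 to 30 lower and 4 to 6 higher in naive and 20 to 31 lower and 2 to 3 higher in PP hearts, and 0 called in the other comparisons. Large minus small ranged from 0.09 to 0.20 in naive and from -0.00 to 0.12 in PP hearts. The replicate block gave 32 lower and 8 higher in naive and 29 lower and 3 higher in PP hearts; for Mrps18a in PP hearts it gave -1.04 (adjusted p = 0.026), and for Mrpl44 in naive hearts 0.53 (adjusted p = 0.0087), both then called, and it changed no other call among the named genes. Numbers were not shown to pair libraries in either comparison, so the block is given as a setting only. The diet study, with 466651 reads in its shallowest library, limits any statement on changes under 1 on the log2 scale.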
